A study of Mus musculus with 8 samples.

Results

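The genes of the mitochondrial ribosomal proteins were followed through an RNA-seq experiment on depletion of the histone chaperone HIRA complex in mouse embryonic stem cells (ESCs). They were all genes whose symbol is Mrpl or Mrps followed by a number and, in some, a letter from a to c, which gave 78 of the 55418 genes counted. Feeder-free E14 ESCs, with the strain label 12910la, were grown on gelatin in serum and LIF and transfected with a pSUPER-puro plasmid carrying an shRNA. The 4 groups were Control, Hira_KD, Ubn1_KD and Ubn2_KD, with 2 libraries each. Puromycin selection for 3 days preceded RNA extraction in the depleted cells, and libraries came from an mRNA kit. The labels give the genotype of the Control cells as wild type, whereas the knockdown methods name an shRNA against luciferase. Nothing says whether the 2 libraries of a group came from separate cultures, so p-values measure the spread between these libraries, which may be technical. The sources used here describe transfected populations rather than clones, and name a target per shRNA without saying whether several shRNAs were pooled.

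The mitochondrial ribosome translates the few proteins encoded by mitochondrial DNA, all of them parts of the respiratory chain and ATP synthase. Its rRNAs are transcribed inside the organelle, while every protein of it is encoded in the nucleus, made in the cytosol and imported. The large subunit forms peptide bonds and the small subunit reads the mRNA. Some of its proteins descend from bacterial ribosomal proteins (names in u or b, such as uL24m) and others exist only in mitochondria (names in m, such as mL37). Hira, Ubn1 and Ubn2 belong to a chaperone that deposits the histone variant H3.3 on chromatin outside of replication.

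Of the members, 51 belong to the large subunit and 26 to the small subunit. Mrps36 keeps a ribosomal symbol but is a subunit of the 2-oxoglutarate dehydrogenase complex, and it was counted with neither. By the prefix of the standard name, 46 members were counted as homologues of bacterial ribosomal proteins and 31 as specific to mitochondria. Mrps18a and Mrps30 carry small-subunit symbols but are large-subunit proteins, mL66 and mL65. Every member had counts in every library, the lowest being 205, and all 78 passed the filter on low counts in every comparison. They lie on 17 chromosomes.

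Libraries held between 19710040 and 32706053 counts, and mitochondrially encoded genes took from 0.821% of them in an Ubn1-depleted library to 1.45% in an Ubn2-depleted library. Levels are CPM, each count divided by its library's total and expressed on a common scale, with totals scaled by TMM, a normalization on the bulk of genes. Each targeted gene was lower in its own depletion. Hira fell from 93.5 ± 5.76 to 10.2 ± 0.261 CPM (mean ± SD, n = 2), Ubn1 from 48.5 ± 6.33 to 23.8 ± 0.0369 CPM and Ubn2 from 50.9 ± 1.12 to 27.3 ± 3.92 CPM. Their log2 fold changes were -3.22, -1.03 and -0.90, so the depletions were unequal in depth. After Hira depletion Ubn1 rose by 0.48 on the log2 scale (edgeR adjusted p = 0.00046) and Ubn2 by 0.26 (0.023). Hira rose by 0.19 (0.042) after Ubn2 depletion. The 10 markers of naive ESCs were above 1 CPM in every library and summed to 7094 to 7383 CPM in control, 6312 to 6463 after Hira, 6424 to 6520.2 after Ubn1 and 6116 to 6252 after Ubn2 depletion. These markers did not move together. After Ubn2 depletion Tdgf1 went from 1516 and 1573 to 890 and 910 CPM, and Esrrb from 752 and 808 to 953 and 932. After Hira depletion Dppa5a went from 1302 and 1291 to 913 and 921 CPM, and Nanog from 472 and 424 to 598 and 525. The summed level of 6 heart muscle genes was 12.7 to 12.8 CPM in control, 9.5 to 10.0 after Hira depletion, 8.57 to 12.9 after Ubn1 depletion and 122 to 200.1 after Ubn2 depletion, with none at 0 in every library and 2 above 1 CPM in all. Within this list, Actc1 went from 0.0974 and 0.189 CPM in control to 85.3 and 49.7 after Ubn2 depletion. Myl7 went the other way, from 6.38 and 7.39 to 3.63 and 3.52 CPM. The summed level of 5 two-cell-like genes was 2.73 to 5.45 CPM in control, 14.4 to 21 after Hira, 11.7 to 12.3 after Ubn1 and 19.4 to 28.3 after Ubn2 depletion, with none at 0 in every library and 1 above 1 CPM in all. Their part in the results for the members was not tested.

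Promoters are shown for members that moved most clearly, because the genes share motif and layout features that the choice by symbol did not use. RefSeq windows on GRCm38.p6, from 250 bases before to 50 after the start, were found for 69 of the 78 members. The ETS motif CCGGAAG, searched on both strands, was in 36.2% of these windows and in 9.12% of 27025 windows of all genes. The YY1 motif AAGATGGC was in 17.4% against 2.88%, and the core of the NRF1 motif, GCATGCG, was in 11.6% against 3.64%. The CCAAT box, CCAAT, was in 39.1% against 37.9%, and the E-box CACGTG was in 7.25% against 7.24%. The ETS motif ends and the YY1 motif begins with the letters AAG, so that their matches can share bases. Matches of both shared bases in 0 of the members' windows and in 1 window of all genes. The median GC content was 58.3% in the members' windows and 52.7% in all windows. The median count of C followed by G was 21 in the members' windows and 7 in all windows. The ETS, NRF1 and E-box motifs contain this step, and the shares were adjusted for neither measure. A match is a run of letters and not evidence of binding.

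The following are the bases upstream of the RefSeq start, 5′ to 3′ on the gene's strand, with ETS, NRF1 core and YY1 matches in capitals and everything else in lower case. The first 4 belong to the members with the smallest adjusted p among those lower after Hira depletion that had a window. The next 2 were chosen in the same way among those higher after Ubn2 depletion. The last lies between Mrpl40 and Hira, which are transcribed away from each other. Where a divergent gene starts inside the window, only the bases between the starts are given.
Mrpl24, chr3:87919294-87919543, plus strand: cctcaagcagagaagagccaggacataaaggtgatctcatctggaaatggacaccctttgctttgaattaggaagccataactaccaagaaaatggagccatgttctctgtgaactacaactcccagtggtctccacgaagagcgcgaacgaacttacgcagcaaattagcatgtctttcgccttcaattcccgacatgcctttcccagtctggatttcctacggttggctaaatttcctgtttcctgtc
Mrpl42, chr10:95501950-95502199, minus strand: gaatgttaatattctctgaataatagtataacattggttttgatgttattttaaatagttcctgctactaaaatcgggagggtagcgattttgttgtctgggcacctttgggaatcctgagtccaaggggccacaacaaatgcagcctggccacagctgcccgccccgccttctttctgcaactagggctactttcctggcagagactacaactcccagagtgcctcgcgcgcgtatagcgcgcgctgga
Mrpl37, chr4:107066867-107066993, minus strand, up to the start of Cyb5rl: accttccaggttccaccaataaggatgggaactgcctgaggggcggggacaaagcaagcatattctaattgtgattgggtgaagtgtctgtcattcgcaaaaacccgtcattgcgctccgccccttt
Mrpl3, chr9:105053018-105053267, plus strand: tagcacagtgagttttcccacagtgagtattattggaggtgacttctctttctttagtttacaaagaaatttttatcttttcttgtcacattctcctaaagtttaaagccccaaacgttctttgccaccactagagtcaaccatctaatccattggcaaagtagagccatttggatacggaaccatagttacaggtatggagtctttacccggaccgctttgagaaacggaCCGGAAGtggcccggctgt
Mrpl17, chr7:105811088-105811337, minus strand: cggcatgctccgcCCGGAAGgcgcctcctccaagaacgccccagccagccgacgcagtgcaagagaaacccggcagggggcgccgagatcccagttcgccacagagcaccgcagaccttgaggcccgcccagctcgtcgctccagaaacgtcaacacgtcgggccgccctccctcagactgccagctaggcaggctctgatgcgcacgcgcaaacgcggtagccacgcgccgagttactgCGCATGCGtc
Mrpl49, chr19:6057756-6057946, minus strand, up to the start of Fau: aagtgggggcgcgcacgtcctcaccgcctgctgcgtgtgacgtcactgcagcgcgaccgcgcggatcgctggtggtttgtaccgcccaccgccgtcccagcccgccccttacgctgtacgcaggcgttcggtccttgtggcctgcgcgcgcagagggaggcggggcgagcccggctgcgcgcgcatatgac
Mrpl40, chr16:18876638-18876749, minus strand, up to the start of Hira: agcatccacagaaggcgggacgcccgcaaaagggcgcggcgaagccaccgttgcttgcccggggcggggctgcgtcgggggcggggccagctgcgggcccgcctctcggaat
The ETS match of Mrpl3 lay close to the start. Mrpl17 held an ETS match far upstream and overlapping NRF1 core matches at the start. The YY1 matches of Mrpl42, Mrpl37 and Mrpl49 began 28, 27 and 17 bases into the transcript, beyond the stretch shown. Among the 40 members with a window that fell after Hira depletion, 18 held the ETS motif, against 7 of the other 29. The YY1 motif was in 5 of the 40 and in 7 of the 29. These shares are descriptions and were not tested.

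Starts close to the start of a gene on the opposite strand were common. A protein-coding gene on the opposite strand started within 1000 bases of the start of 33 of the 78 members (42.3%), against 2386 of 22028 protein-coding genes (10.8%) in GENCODE M21. For 18 of the 33 members the genes are divergent with their starts apart. For 15 the starts lie inside each other's gene and exon bases are shared. Mrpl46 and Mrps11 are each other's partner and are counted from both sides. Several partners also serve mitochondria. Mrps12 is divergent from Sars2, the mitochondrial seryl-tRNA synthetase, Mrpl43 overlaps Twnk, the mitochondrial DNA helicase, by 507 exon bases, and Mrpl36 and Mrpl47 overlap Ndufs6 and Ndufb5 of respiratory complex I. Mrpl46 of the large and Mrps11 of the small subunit overlap each other by 173 exon bases. Exons of 33 members overlapped exons of another gene. The strand setting of the counting is not given in the sources used here, so reads of overlapping genes cannot be told apart.

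Control levels spanned about an order of magnitude. By the mean of the control libraries, members ranged from 11.9 CPM for Mrpl53 to 155 CPM for Mrpl15, with a median of 48.8. Divided by the length of the longest protein-coding transcript, the level ranged from 3.92 to 138 CPM per kb with 53 of the 78 within 2-fold of the median. The highest were Mrpl42 at 138 ± 0.0739, Mrpl52 at 124 ± 7.97, Mrpl2 at 104 ± 0.495, Mrpl20 at 101 ± 5.17 and Mrpl18 at 94.5 ± 5.55 CPM per kb (mean ± SD, n = 2). Mrpl2 and Mrpl20 were closer to each other than the spread of Mrpl20. The lowest were Mrpl19 at 3.92 ± 0.134, Mrps26 at 8.66 ± 0.102, Mrpl1 at 8.68 ± 1.12, Mrpl32 at 8.90 ± 0.190 and Mrps35 at 9.24 ± 0.0217. Among these, Mrps26 and Mrpl1 did not differ beyond their spread, and Mrpl32 and Mrps35 lay within the spread of Mrpl1. The order depended on the length used. With all exons merged Mrpl42 was ranked 30 and Mrpl2 was ranked 1, while Mrpl19 stayed last.

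Summed over members, the level was lowest after Hira depletion. The Control libraries summed to 4241 and 4192 CPM and the Hira-depleted ones to 3543 and 3605. The sums were 3908 and 4077 CPM for Ubn1_KD and 4102 and 4234 for Ubn2_KD. Both Hira-depleted libraries lay below all others, both Ubn1-depleted libraries lay below both controls, and the Ubn2-depleted libraries overlapped the controls. The large-subunit sum was 2.08 to 2.22 times the small-subunit sum in all 8 libraries. As a share of raw counts, before TMM scaling, members took 0.41% ± 0.00257 in Control, 0.374% ± 0.00177 in Hira_KD, 0.393% ± 0.00406 in Ubn1_KD and 0.416% ± 0.00796 in Ubn2_KD (mean ± SD, n = 2).

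**Figure D1:**
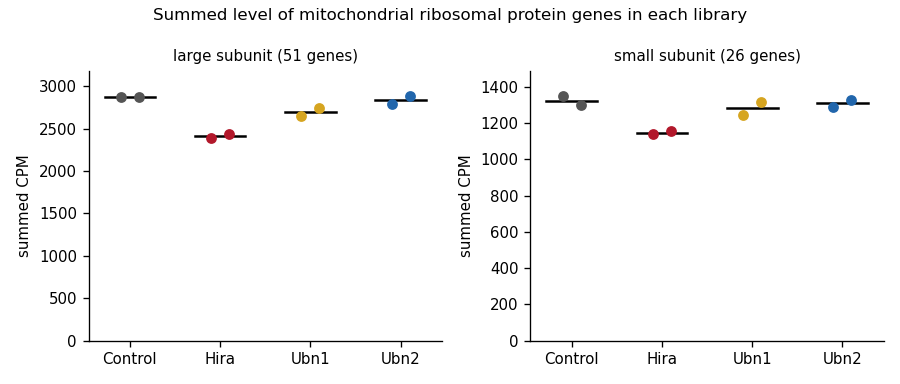
Summed CPM of the 51 large-subunit genes (left) and the 26 small-subunit genes (right) in each of the 8 libraries. Points are libraries and bars are group means; both sums are lowest in the Hira-depleted libraries, with a large-subunit mean of 2409 CPM against 2875 in control.

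Depletion of Hira was compared with control to ask which genes change when the core subunit of the complex is reduced. Mitochondrial ribosomal protein genes were mostly lower. With edgeR's quasi-likelihood test and Benjamini-Hochberg adjustment over 19035 genes, 43 members fell and 1 rose at an adjusted p under 0.05, and 34 did not pass. The members that fell make up 55.1% of the 78, whereas 17.3% of all genes tested were lower and 17.6% higher. Among the 8491 genes with a control mean inside the members' range of levels, 24.8% were lower and 17.4% higher. The median log2 fold change was -0.27 over the members and 0.01 over all genes. Control and Hira-depleted libraries did not overlap in 53 members that were lower and 7 that were higher, where 31.4% and 35.6% of all genes separated in these directions.

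Most of these decreases were small. Under the study's rule, which also requires a fold change over 1.5, 6 members (7.69%) were downregulated and 0 upregulated. Over all genes these shares were 5.4% and 10.8%, so the share downregulated was near the background. At an unadjusted p under 0.05 and any fold change 5 members were higher, and DESeq2 also called 0 upregulated. With the fold change left out of the rule the counts are the 43 and 1 above. All 6 belong to the large subunit, which holds 51 of the 78 members. Mrpl24 encodes uL24m, whose bacterial relative binds early in large-subunit assembly, and had 126 and 123 CPM in control and 71.9 and 69.3 after Hira depletion. Its log2 fold change was -0.83 ± 0.08 (SE, edgeR adjusted p = 8.6e-08). The Ubn1-depleted libraries, at 95.8 and 103 CPM, and the Ubn2-depleted libraries, at 93 and 100.2 CPM, lay between these levels. Exons of Mrpl24 overlap Rrnad1 on the opposite strand.

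Mrpl3, encoding uL3m near the catalytic centre, had 52.4 and 48.3 CPM in control, 31.9 and 29.8 after Hira, 50 and 47.4 after Ubn1 and 53.1 and 54.6 after Ubn2 depletion. The Hira-depleted libraries lay below the other 6, and the log2 fold change against control was -0.72 ± 0.10 (adjusted p = 8.1e-06). Mrpl37, encoding the mitochondria-specific mL37, was likewise low with Hira depleted alone, with 61 and 58.8 CPM in control, 35.3 and 39.1 after Hira, 63.3 and 64.4 after Ubn1 and 62.5 and 69.2 after Ubn2 depletion. Its log2 fold change after Hira depletion was -0.71 ± 0.09 (adjusted p = 5.1e-06). Its divergent neighbour Cyb5rl also fell, with a log2 fold change of -0.62 (adjusted p = 0.0497).

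Mrpl42, encoding mL42, was the member with the highest control level per length. It had 92.2 and 92.2 CPM in control, 56.6 and 58.4 after Hira, 72.2 and 80 after Ubn1 and 71.6 and 72.7 after Ubn2 depletion, and its log2 fold change after Hira depletion was -0.70 ± 0.08 (adjusted p = 1.1e-06). Every depleted library was below both controls, with the Hira-depleted ones lowest. Mrpl33, encoding bL33m, went from 32 and 30.1 to 20.1 and 19.2 CPM with a log2 fold change of -0.67 ± 0.11 (adjusted p = 8.4e-05). Mrpl23, encoding uL23m of the tunnel exit, went from 55.6 and 52.7 to 37.6 and 34.6 CPM with a log2 fold change of -0.60 ± 0.09 (adjusted p = 4.2e-05). For both genes no Hira-depleted library reached a control library. Mrpl3 and Mrpl33 also overlap other annotated genes in their exons.

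**Figure D2:**
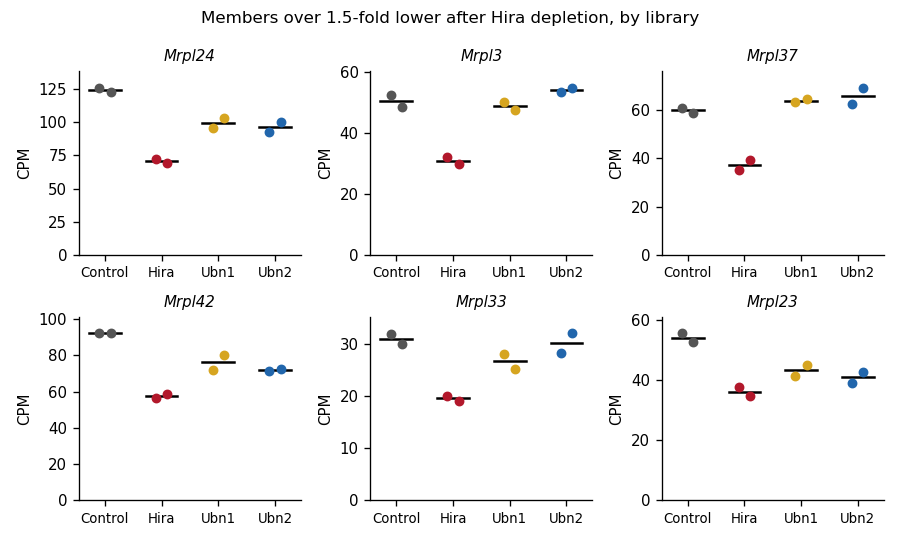
CPM (TMM-scaled) of the 6 members downregulated over 1.5-fold after Hira depletion, in each library of Control, Hira, Ubn1 and Ubn2 depletion. Points are libraries and bars are group means; the Hira-depleted libraries are lowest for each gene, with a mean of 70.6 CPM for Mrpl24 against 125 in control.

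The decrease was spread over both subunits. After Hira depletion 29 of 51 large-subunit members fell (median log2 fold change -0.28), and 14 of 26 small-subunit members fell and 1 rose (median -0.25). By origin as read from the names, 30 of 46 homologues of bacterial proteins fell, against 13 of 31 mitochondria-specific members. Within the large subunit these counts were 21 of 30 and 8 of 21. The difference between classes was not tested. Of the 45 members whose exons overlap no other gene, 29 fell, with a median of -0.32.

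Among the small-subunit members, Mrps10, encoding uS10m, went from 56.1 and 47.7 to 36 and 34.4 CPM (log2 fold change -0.57 ± 0.10, adjusted p = 0.00013), with the control libraries further apart than the depleted ones. Mrps17, encoding uS17m, went from 74 and 70.2 to 52.7 and 51.2 CPM (-0.49 ± 0.08, adjusted p = 0.00011). In the large subunit, Mrpl15, the most highly counted member, went from 158 and 153 to 111 and 116 CPM (-0.46 ± 0.07, adjusted p = 6.1e-05). Mrpl13, encoding uL13m, went from 61.9 and 62.7 to 45.5 and 41.6 CPM (-0.53 ± 0.09, adjusted p = 8.8e-05). In these 4 genes the groups did not overlap. The genes Mrpl12, Mrpl11 and Mrpl10, whose products lie at the factor-binding stalk, had log2 fold changes of -0.38 (adjusted p = 0.00081), -0.28 (adjusted p = 0.022) and -0.27 (adjusted p = 0.013), and Mrps12, whose product lies at the decoding centre, had -0.39 (adjusted p = 0.0043). These last 4 genes were chosen after their values were seen and stand for no group.

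The member that rose was Mrps7, encoding uS7m of the small-subunit head, from 36.5 and 38 to 45.7 and 43.6 CPM (0.25 ± 0.09, adjusted p = 0.045). This call was lost when control replicate 1, control replicate 2, Hira replicate 1 or Hira replicate 2 was left out, with log2 fold changes of 0.21 to 0.28. Exons of Mrps7 overlap Gga3 and Mif4gd on the opposite strand. Mrpl54 did not pass, at 0.31 ± 0.12 (adjusted p = 0.052).

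Changes after Hira depletion ran with expression level over all genes. Across 14669 tested genes with a coding transcript, Spearman's rho between control level and log2 fold change was -0.39, whereas across the 78 members it was -0.17. These are correlations over genes of the same libraries and carry no test. Among 750 genes within the members' range of levels and with a coding transcript no longer than the members' median, the median log2 fold change was -0.20, compared with -0.27 for the members. How much of the members' decrease goes with level and length was not tested.

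**Figure D3:**
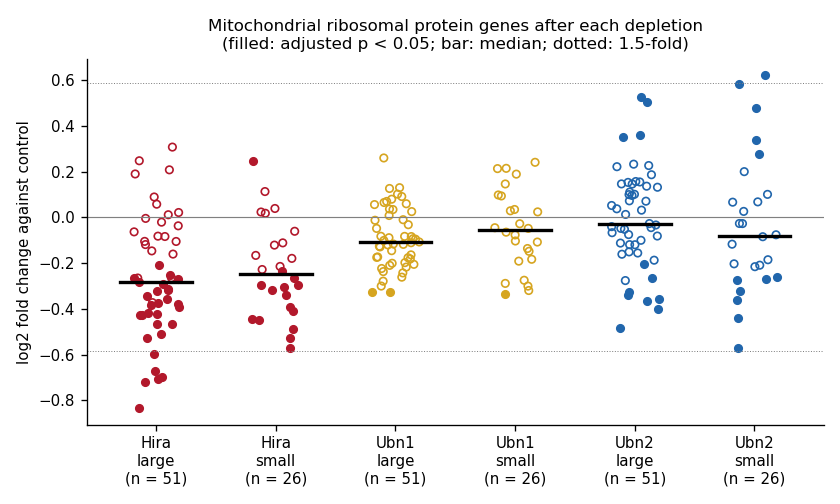
Log2 fold change against control of the 51 large-subunit and 26 small-subunit members after Hira, Ubn1 and Ubn2 depletion. Each point is a gene, filled where the adjusted p was under 0.05, with the class median as a bar and 1.5-fold as dotted lines; points lie mostly below 0 after Hira depletion and on both sides of 0 after Ubn2 depletion.

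Mrpl40 and Hira are divergent neighbours, with starts 175 bases apart in GENCODE M21 and 113 in RefSeq. Mrpl40, encoding mL40, had 39.8 and 37.7 CPM in control and 28.8 and 29.7 after Hira depletion, without overlap. Its log2 fold change was -0.42 ± 0.10 (adjusted p = 0.0025), beside -3.22 for Hira. In the other depletions it had 39.8 and 33.5 CPM after Ubn1 and 38.4 and 41.9 after Ubn2 depletion, and both groups overlapped the control libraries. Of the 33 members with such a partner, 16 fell after Hira depletion, and of the partners of those 16, 6 fell, Hira itself among them, and 1 rose. With Hira set apart, 9 of all 32 partners fell (28.1%) and 3 rose (9.38%), against 17.3% and 17.6% of all genes. The partner that rose beside a member that fell was Sars2, at 0.44 (adjusted p = 0.00138), while Mrps12 fell by 0.39.

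Depletion of Ubn1 moved few members. Against control, 3 fell and 0 rose at an adjusted p under 0.05, and 75 did not pass, where 3.62% of 18373 genes tested were lower and 4.14% higher (4.44% and 5.62% of those at the members' levels). At an unadjusted p under 0.05, 13 were lower and 2 higher, and DESeq2 also called 0 higher. The median log2 fold change was -0.09, and 53 of 78 members lay below 0. With edgeR and with DESeq2, 0 members passed the fold change of 1.5 in either direction, against 1.56% of genes lower and 1.53% higher. The members that fell were Mrpl24, from 126 and 123 to 95.8 and 103 CPM (-0.33 ± 0.09, adjusted p = 0.025), Mrpl23, from 55.6 and 52.7 to 41.5 and 45 CPM (-0.32 ± 0.10, adjusted p = 0.048), and Mrps10, from 56.1 and 47.7 to 40.5 and 41.7 CPM (-0.34 ± 0.11, adjusted p = 0.049). None of the 3 calls was made when either control library was left out, and DESeq2's Wald test kept 1.

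Depletion of Ubn2 moved members in both directions. Against control, 9 rose, 15 fell and 54 did not pass, where 20% of 18219 genes were higher and 19.1% lower, and 23.3% and 23.3% of those at the members' levels. The members called make up 11.5% of the 78 on the higher side and 19.2% on the lower side, so that the share lower was near the background and the share higher was below it. The median log2 fold change was -0.03. Under the rule with a fold change over 1.5, edgeR called 1 member upregulated and 0 downregulated, as did DESeq2, against 9.59% and 8.75% of genes. At an unadjusted p under 0.05 and any fold change, 20 members were lower. Without that fold change the counts are the 9 and 15 above.

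The upregulated member was Mrps34, encoding mS34 of the small subunit, with 53.2 and 53.4 CPM in control, 52.9 and 58 after Hira, 58.5 and 63.1 after Ubn1 and 81.9 and 82 after Ubn2 depletion. Only the Ubn2-depleted libraries stood clear of all others, at a log2 fold change of 0.62 ± 0.08 (adjusted p = 1.8e-06). Its exons overlap Nme3 on the same strand and Mapk8ip3 on the opposite strand, and reads shared with them cannot be told apart. Mrpl17, encoding bL17m, overlaps no other gene and had 96.9 and 96.1 CPM in control and 139 and 138 after Ubn2 depletion (0.53 ± 0.07, adjusted p = 2.4e-06). It moved the other way after Hira depletion, to 80.2 and 89 CPM (-0.21 ± 0.08, adjusted p = 0.045).

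Mrps7 rose to 57.2 and 54.3 CPM (0.58 ± 0.09, adjusted p = 2.3e-05), just under the fold change of 1.5. Mrpl49, divergent from the ribosomal protein gene Fau, went from 70.9 and 67.2 to 96.5 and 99.6 CPM (0.51 ± 0.07, adjusted p = 1.4e-05). Mrps2, encoding uS2m, went from 63.3 and 64.8 to 86.9 and 91.7 CPM (0.48 ± 0.07, adjusted p = 3.4e-05). In these genes both Ubn2-depleted libraries lay above every other library. Mrpl43 rose by 0.35 ± 0.08 (adjusted p = 0.0015) and Twnk by 0.42 (adjusted p = 5.2e-05), and reads in the 507 exon bases that they share cannot be told apart. Fau went the other way from Mrpl49, at -0.38 (adjusted p = 0.000202). Of the 6 members that rose and have an opposite-strand partner, 3 had a partner that rose and 1 a partner that fell. Over all genes 20% were higher and 19.1% lower. Besides Twnk, the partners that rose were Eme2 beside Mrps34 (0.39, edgeR adjusted p = 0.0057) and Ppp1r10 beside Mrps18b (0.90, 1.2e-07). Mrps11, at 0.28 ± 0.10 (adjusted p = 0.036), overlaps Mrpl46, which had a log2 fold change of -0.03 (adjusted p = 0.85). The call of Mrps11 was lost without control replicate 1 (0.29), control replicate 2 (0.25) or Ubn2 replicate 2 (0.22).

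The paralogs Mrps18a, Mrps18b and Mrps18c descend from one bacterial protein and now occupy different places on the ribosome. Since the classes by origin follow the names, Mrps18a and Mrps18b were counted above as mitochondria-specific. Mrps18a (mL66, large subunit) went from 29.8 and 31.7 to 38.5 and 40.6 CPM after Ubn2 depletion (0.36 ± 0.10, adjusted p = 0.0058). Mrps18b (mS40) went from 64.3 and 65.4 to 76 and 88 CPM (0.34 ± 0.08, adjusted p = 0.0024), with the Ubn2-depleted libraries well apart from each other. Without Ubn2 replicate 2 this call was lost (0.23). Mrps18c, the bS18m protein, had 24.5 and 23.9 CPM in control and 25.5 and 26.4 after Ubn2 depletion (0.10 ± 0.11, adjusted p = 0.49). After Hira depletion the log2 fold changes were -0.26, -0.26 and -0.12 for Mrps18a, Mrps18b and Mrps18c, with adjusted p of 0.058, 0.018 and 0.46.

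**Figure D4:**
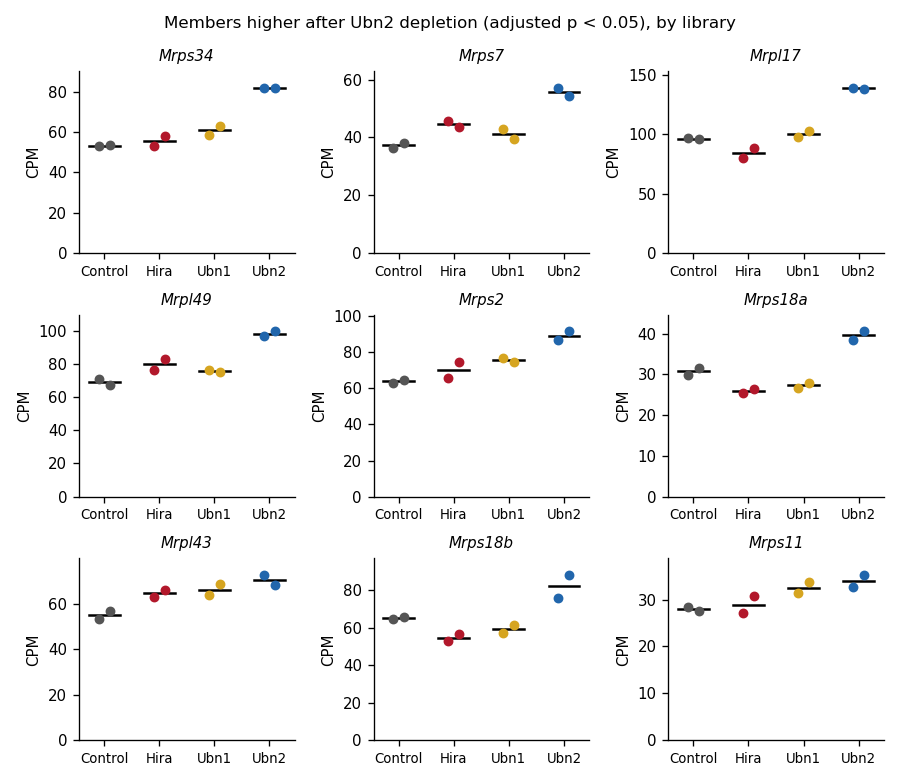
CPM (TMM-scaled) of the 9 members higher after Ubn2 depletion at an adjusted p under 0.05, in each library. Points are libraries and bars are group means; the Ubn2-depleted libraries lie above both control libraries in each panel, from a mean of 34.0 CPM for Mrps11 to 139 for Mrpl17.

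Of the members lower after Ubn2 depletion, Mrps26 (mS26) went from 36.8 and 37.4 to 23.4 and 26.7 CPM, the widest decrease (-0.57 ± 0.10, adjusted p = 0.00019). Its Ubn1-depleted libraries lay above control, at 42.3 and 43.7 CPM. Mrpl11 of the stalk base went from 53.3 and 52.5 to 37 and 38.7 CPM (-0.48 ± 0.09, adjusted p = 0.00018). Mrps28 (bS1m) went from 35.1 and 35.4 to 25.9 and 26 CPM (-0.44 ± 0.10, adjusted p = 0.0015). Mrpl24, Mrpl23, Mrpl42 and Mrpl15 fell by 0.37, 0.40, 0.35 and 0.32 on the log2 scale, Mrpl48 by 0.34, Mrps9 by 0.32 and Mrps5 by 0.27, with adjusted p of 0.00025, 0.0012, 0.00053, 0.00047, 0.0024, 0.0024 and 0.0026. The other 5 that fell were Mrps33, Mrps17, Mrps30, Mrpl18 and Mrps10, with log2 fold changes from -0.36 to -0.20.

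The depletions were also compared directly, since comparisons with the same control libraries are not independent. The targets were reduced to unequal degrees, and no comparison was adjusted for this. In Hira minus Ubn2 depletion, 33 members were lower with Hira depleted and 3 higher, against 17.2% and 18.6% of 18563 genes (23.6% and 18.8% at the members' levels), and the median was -0.21. Mrpl37 differed by -0.82 ± 0.09 (adjusted p = 1.2e-05), Mrpl3 by -0.79 ± 0.09 (1.4e-05), Mrpl17 by -0.71 ± 0.08 (8.1e-06), Mrps18b by -0.58 ± 0.09 (0.00015) and Mrps34 by -0.56 ± 0.08 (9.2e-05), each lower with Hira depleted. Higher with Hira depleted were Mrpl48, encoding mL48, with 70.6 and 66.3 CPM against 51.1 and 49.8 (0.45 ± 0.08, adjusted p = 0.0006), Mrps26 (0.36 ± 0.11, 0.015) and Mrpl4 (0.23 ± 0.08, 0.032). Mrpl48 shares 708 exon bases with Rab6a on the opposite strand, and reads there cannot be told apart. Against control, Rab6a had log2 fold changes of 0.21 (edgeR adjusted p = 0.037) after Hira and -0.14 (0.12) after Ubn2 depletion. Mrps26 lost its call without Ubn2 replicate 1 (0.27), and Mrpl4 without Hira replicate 2 (0.17), Ubn2 replicate 1 (0.19) or Ubn2 replicate 2 (0.27). Without Ubn2 replicate 1 the number higher was 1.

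**Figure D5:**
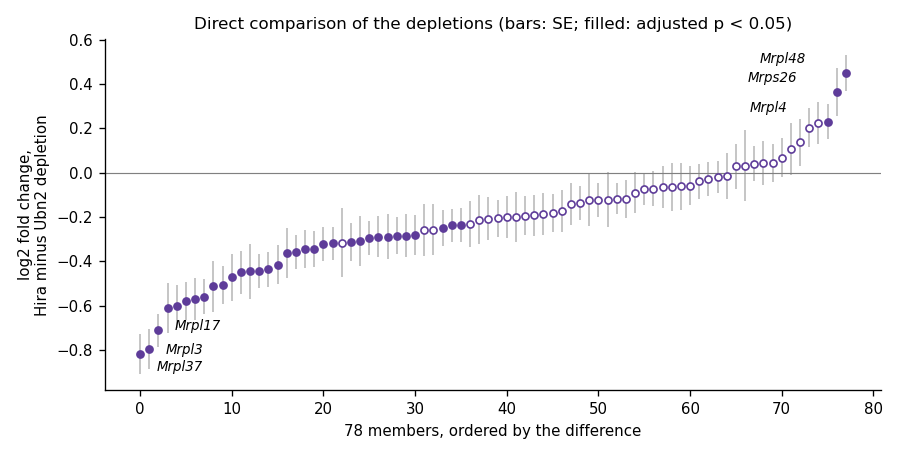
Log2 fold change of Hira minus Ubn2 depletion for each of the 78 members, in order, with the standard error as a bar. Filled points had an adjusted p under 0.05; 33 lie below 0 and 3 above.

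In Hira minus Ubn1 depletion, 15 members were lower with Hira depleted and 1 higher, against 10.2% and 14.2% of 18819 genes (15.2% and 12.5% at the members' levels), with a median of -0.14. Mrpl37 (-0.77 ± 0.10, adjusted p = 4.8e-06) and Mrpl3 (-0.65 ± 0.11, 8.5e-05) differed most. Mrpl24, Mrpl28 and Mrpl20 differed by -0.48, -0.48 and -0.47 (adjusted p = 0.00062, 0.00084 and 0.0016). Mrpl48 was the member higher with Hira depleted (0.28 ± 0.10, 0.041). The number lower depended on single libraries: it was 5 without Hira replicate 1, 9 without Hira replicate 2 and 23 without Ubn1 replicate 1, while Mrpl48 lost its call without Hira replicate 1 (0.24), Hira replicate 2 (0.32) or Ubn1 replicate 1 (0.19), and Mrpl20 without Hira replicate 1 (-0.35).

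In Ubn2 minus Ubn1 depletion, 7 members (8.97%) were higher with Ubn2 depleted and 2 (2.56%) lower, with a median of 0.05. Over 18205 genes 8.6% were higher and 7.98% lower (8.93% and 10.7% at the members' levels). The share lower was thus below the background and the share higher was near it. The 5 named among those higher were Mrps18a (0.53 ± 0.11, adjusted p = 0.0023), Mrpl17 (0.47 ± 0.08, 0.001), Mrps18b (0.47 ± 0.10, 0.003), Mrps34 (0.43 ± 0.09, 0.0035) and Mrps7 (0.43 ± 0.10, 0.0058). Lower with Ubn2 depleted were Mrps26 at -0.79 ± 0.11 (0.00011) and Mrpl4 at -0.29 ± 0.09 (0.043). Without Ubn1 replicate 1 the number lower was 7, without Ubn2 replicate 1 or 2 it was 1, and without either of those 2 libraries the number higher was 4. Mrpl4 lost its call without Ubn1 replicate 2 (-0.19), Ubn2 replicate 1 (-0.25) or Ubn2 replicate 2 (-0.32), Mrps7 without Ubn2 replicate 1 (0.39) and Mrps18b without Ubn2 replicate 2 (0.37).

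The rest of the mitochondrial translation machinery gave the following counts, which stand beside 17.3% of all genes lower and 17.6% higher after Hira and 19.1% and 20% after Ubn2 depletion. Of 5 subunits of the ribosome listed under other symbols, 3 fell after Hira depletion, with Dap3 (mS29) at -0.37 ± 0.08 (adjusted p = 0.0012) and Chchd1 at -0.49 ± 0.11 (0.0011). Dap3 fell in all 3 depletions and most after Ubn2 depletion, at -0.70 ± 0.07 (1.4e-07), beside -0.29 ± 0.09 (0.043) after Ubn1 depletion. Of 26 assembly factors, 8 (30.8%) fell and 2 (7.69%) rose after Hira depletion, with the smallest adjusted p for the GTPase gene Mtg1 at -0.65 (0.00055). After Ubn2 depletion 6 (23.1%) rose and 3 (11.5%) fell, the first near the share of all genes and the second below it, and the pseudouridine synthase gene Trub2 rose by 0.82 ± 0.08 (6.8e-08).

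Of 14 translation factors, 7 fell after Hira depletion, among them the recycling factor Gfm2 at -0.64 (2.7e-06) and the elongation factor Tufm at -0.51 (3e-05). Of 17 aminoacyl-tRNA synthetases of the organelle, 7 fell and 2 rose. Of 9 genes of mitochondrial transcription and genome maintenance, 6 fell. Of the tested transcription factors that bind promoters of mitochondrial genes, 2 of 9 (22.2%) fell, Yy1 at -0.51 (2.7e-05) and Nrf1 at -0.34 (0.0026). Another 2 (22.2%) rose, with Mycn at 0.69 (1.4e-05). Both shares were near those of all genes.

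Other genes of translation and respiration were lower after Hira depletion in similar or larger shares. Of 81 cytosolic ribosomal protein genes, 69 fell and 1 rose after Hira depletion (median -0.33), and of 75 nuclear-encoded respiratory chain subunits 54 fell (median -0.31). After Ubn2 depletion the cytosolic ribosomal protein genes again were lower, 66 down and 1 up with a median of -0.38, beside a median of -0.03 for the mitochondrial ones, and 29 respiratory chain genes fell and 1 rose. After Ubn1 depletion 11 cytosolic ribosomal protein genes (13.6%) fell and 1 (1.23%) rose, and 3 respiratory chain genes (4%) fell. Over all genes 3.62% were lower and 4.14% higher, so the respiratory chain share was near the background. Whether the lists differ was not tested.

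Of 14 tested transcripts of the mitochondrial genome itself, 4 (28.6%) fell after Hira depletion, with a median log2 fold change of -0.20, and 6 (42.9%) rose after Ubn2 depletion, with a median of 0.11. After Ubn1 depletion 1 of 15 (6.67%) fell, against 3.62% of all genes, with a median of -0.20. Among them are the rRNAs that form the core of this ribosome. On the log2 scale mt-Rnr1 had -0.43 (0.0015) after Hira, -0.46 (0.013) after Ubn1 and 0.03 (0.8) after Ubn2 depletion. For mt-Rnr2 these were -0.25 (0.046), -0.17 (0.46) and 0.89 (6.4e-09). Control means were 86.3 CPM for mt-Rnr1 and 91.1 for mt-Rnr2, between 6014 for mt-Co1 and 6.13 for mt-Co2. Lower still in control were mt-Co3 (4.91 CPM), mt-Atp6 (4.64), mt-Atp8 (2.12) and mt-Nd4l (1.18). Like mt-Co2, they enter the medians above, and none was called in any depletion. Since the libraries came from an mRNA kit, the values of mt-Rnr1 and mt-Rnr2 may not follow the amount of rRNA in the ribosome. Here and throughout, the libraries are bulk samples, in which fewer cells of a type and less RNA per cell cannot be told apart.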

How the data were processed

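RNA-seq counts of 8 libraries were used as the authors deposited them: raw counts of read pairs or reads per gene, without normalization, in 3 tables that share the control libraries, with 0 differing control values. Per the labels, reads were trimmed with Trim Galore, aligned to GRCm38 with STAR and counted with featureCounts. Versions and the strand setting are not given in the sources used here. Reads matching several genes may have been dropped or split, which affects overlapping genes.

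The members, lists and tests were chosen with earlier results of these data known. Each comparison was fitted on its 4 libraries and the whole table with edgeR 4.0.16 (R 4.3.3): TMM, filterByExpr, quasi-likelihood tests, Benjamini-Hochberg over all genes tested. The SE of a log2 fold change was derived from its quasi-F statistic as |log2 fold change|/√F. Calls used an adjusted p under 0.05, alone or with a fold change over 1.5. CPM used TMM sizes of all libraries (factors 0.97 to 1.06). Symbols were matched to GENCODE M21, 55303 of them to 1 gene; subunit assignments were written by hand. Lengths are of the longest protein-coding transcript, in place of the longest transcript planned, which is an alternative chosen after seeing the data. Named genes were up to 10 members in each direction per comparison with control, 5 per direct comparison, the 5 highest and 5 lowest per length, the Mrps18 paralogs, up to 3 genes of each companion list per comparison with control, and the targeted genes; from each companion list only some of these are printed.

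Alternatives were DESeq2 1.42.0 (the study's tool), its size factors in edgeR, no filter, a minimum of 10 counts per library, a fit of all 8 libraries, the replicate number as a block, and omission of each library. Depth sets a precision that covers counting error only. On simulated counts for Hira against control, 196 of 200 genes changed by 1.5 on the log2 scale were called, with 8 unchanged genes called among 18921. The members' own log2 fold changes after Hira depletion ran from -0.83 to 0.31. How many genes with values of that size would be called was not tested. Python 3.11.15, pandas 2.3.3 and matplotlib 3.10.9 were used.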

Additional observations from a re-analysis of the deposited data

Results flagged for a closer look

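These members differed between depletions when the depletions were tested directly against each other with edgeR, at an adjusted p under 0.05 over all genes. The values are log2 fold changes, with up to 5 members in each direction per comparison. In Hira minus Ubn2 depletion they were 0.45 for Mrpl48, 0.36 for Mrps26 and 0.23 for Mrpl4, and -0.71 for Mrpl17, -0.82 for Mrpl37, -0.79 for Mrpl3, -0.56 for Mrps34 and -0.58 for Mrps18b. In Hira minus Ubn1 depletion they were 0.28 for Mrpl48, and -0.77 for Mrpl37, -0.65 for Mrpl3, -0.48 for Mrpl24, -0.48 for Mrpl28 and -0.47 for Mrpl20. In Ubn2 minus Ubn1 depletion they were 0.47 for Mrpl17, 0.53 for Mrps18a, 0.47 for Mrps18b, 0.43 for Mrps34 and 0.43 for Mrps7, and -0.79 for Mrps26 and -0.29 for Mrpl4. In this last comparison the share of members higher, 8.97%, was near the 8.6% of all genes. Mrpl37 and Mrpl3 were low in the Hira-depleted libraries alone, Mrpl17 and Mrps34 were high in the Ubn2-depleted libraries alone, and Mrps26 was low in the Ubn2-depleted libraries and high in the Ubn1-depleted ones.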

How the results depend on the processing

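No value of a named member and no median over the members changed direction under an alternative run, whereas the median of all genes after Hira depletion, 0.01, was -0.0011 without Hira replicate 1. With each group at 2 libraries, leaving one out assumes that the lone library varies like the others. Among values of named members, 547 stayed on their side of the threshold and 47 lost the call. After Hira depletion the number of members higher was 0 with DESeq2, with its size factors and with no filter, 5 with at least 10 counts in every library, 3 with all 8 libraries and 0 to 1 with a library left out. The number lower was 30 to 37 with a library left out, and 5 to 8 under the rule with a fold change. Calls by adjusted p alone, in place of that rule, gave 1 higher and 43 lower after Hira, 3 lower after Ubn1, and 9 higher and 15 lower after Ubn2 depletion. After Ubn1 depletion the number lower was 1 with DESeq2 or with no filter, and leaving out a library gave 0 to 4 lower and 0 to 1 higher. After Ubn2 depletion, under the rule with a fold change, 2 were higher with DESeq2's size factors (1 to 2 with a library left out) and 1 was lower with no filter (0 to 1). In Hira minus Ubn2 depletion, 1 was higher with DESeq2 (1 to 4 with a library left out). In Hira minus Ubn1 depletion, 0 were higher with DESeq2, its size factors or no filter (0 to 1), and 23 were lower with all 8 libraries (5 to 23). In Ubn2 minus Ubn1 depletion, 1 was lower with DESeq2 (1 to 7), and 4 to 10 were higher with a library left out. The causes were not tested. No scaling moved the median of all genes by over 0.1 (log2).

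Replicate numbers in the titles did not pair the libraries: across 19264 genes, libraries with equal numbers deviated from their groups with correlations of -0.0985 to 0.0978. With the replicate number as a block, 5 members were higher after Hira depletion, 1 was higher and 7 were lower after Ubn1 depletion, 0 were higher in Hira minus Ubn1 and 12 were higher in Ubn2 minus Ubn1 depletion. The block in the fit of all 8 libraries gave 4 higher after Hira depletion and 23 lower in Hira minus Ubn1 depletion. Other counts stayed within 1.5 times.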
